A study of Mus musculus with 9 samples.

Results

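The genes described here are the transcription factor genes, the feedback genes and the inflammatory target genes of the NF-κB pathway. They are Nfkb1, Nfkb2, Rela and Relb, the feedback genes Nfkbia and Tnfaip3, the chemokine genes Cxcl10, Cxcl1 and Ccl2, and the adhesion gene Icam1. They were taken by symbol from a table of 23309 gene symbols, so they are 10 of 23309. Of the 10, 8 reached the level needed for testing (1 FPKM or more in 3 or more of the 9 libraries), as did 9788 genes in all. Cxcl1 and Ccl2 did not reach it and are described by their values alone.

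The data are 9 RNA libraries of podocytes, the cells whose foot processes cover the capillaries of the renal glomerulus. All came from mice of wildtype genotype, 7 to 8 weeks old, that carried the mTmG reporter and a Cre transgene for podocytes, and Cre switches this reporter from red to green fluorescence. RNA was taken from the GFP-positive cells and depleted of ribosomal RNA. One group of 3 libraries came from mice given PBS (phosphate-buffered saline), and the other groups came 9 and 14 days after injection of ADR, with 3 libraries each. ADR is the usual abbreviation of Adriamycin (doxorubicin), a drug used to injure podocytes, although the labels do not spell it out. Whether the 3 libraries of a group stem from 3 different mice is not in the labels, and the p-values then reflect only how far these libraries spread, which may be technical. Y-linked transcripts, given below, were present in some libraries of each ADR group and near absent in others. The libraries of an ADR group are therefore not all from the same mouse.

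NF-κB is a family of dimeric transcription factors built from Rel proteins. In resting cells, inhibitors of the IκB family hold the dimers in the cytoplasm. Signals from tumour necrosis factor, interleukin and Toll-like receptors remove the inhibitor through the IκB kinases, while a separate branch through the lymphotoxin β receptor and the kinase encoded by Map3k14 releases dimers of Relb and processed Nfkb2. The factors switch on genes of their own inhibitors, which closes a feedback loop, as well as chemokines and adhesion molecules that draw leukocytes into an inflamed glomerulus.

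Some features of the libraries bear on every value below. The 10 podocyte markers examined were all at 1 FPKM or more in every library, and Nphs1 (nephrin) ran from 30.2 to 99.2 FPKM. The summed level of these 10 markers was 4405 to 7638 FPKM with PBS, 6170 to 10224 on day 9 and 1416 to 2213 on day 14. In bulk RNA, fewer cells of a type and less RNA per cell cannot be told apart. Day 9 replicate 3 and day 14 replicate 1 stood apart, with 13 and 14 of 15 endothelial markers above 4 times the highest PBS library and at 1 FPKM or more. By the same bound they carried 11 and 9 of 21 leukocyte markers, 4 and 14 of 15 proximal tubule markers, 9 and 13 of 15 distal tubule, loop and duct markers, and 5 and 2 of 12 mesangial and pericyte markers. The summed level of 4 Y-linked transcripts was 53.6 to 70.5 FPKM in the 3 PBS libraries, day 9 replicate 1 and day 14 replicate 2, and at most 1.06 in the other 4. All PBS libraries thus held these transcripts and most ADR libraries did not. A fit with a term for them cannot fully separate that term from the group. Sequencing depth was estimated from ratios of values under 0.3 FPKM, with PBS replicate 2 set to 1. It was 1 to 1.09 with PBS, 0.786 to 0.889 on day 9 and 0.239 to 0.569 on day 14.

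FPKM values are scaled to transcript length, so levels of different genes can be set side by side, though only roughly. Across genes, the day 14 change against PBS still varied with transcript length (Spearman's rho −0.33). With PBS the mean levels stood in the order Nfkbia, Rela, Tnfaip3, Relb, Nfkb2, Cxcl10, Icam1, Nfkb1, Cxcl1 and Ccl2. Nfkbia, at 2556 ± 593 FPKM (SD, n = 3), stood above all others, and in every one of the 9 libraries it lay above 97.7% to 99.7% of the genes tested. Rela followed at 173 ± 100.04 FPKM, Tnfaip3 at 106 ± 2.55, Relb at 82.4 ± 16.0 and Nfkb2 at 33.7 ± 2.98 (SD, n = 3). Nfkb1 was at 1.92 ± 0.625 FPKM (SD, n = 3), the lowest of the 4 factor genes. Among neighbours in the PBS order, the libraries of Rela and Tnfaip3 overlapped, as did those of Icam1 and Nfkb1, and the remaining 7 neighbouring pairs did not. On day 9 and on day 14, Nfkbia and Rela were again first and second, without overlap, and Relb followed by Tnfaip3 came next with overlapping libraries.

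**Figure D1:**
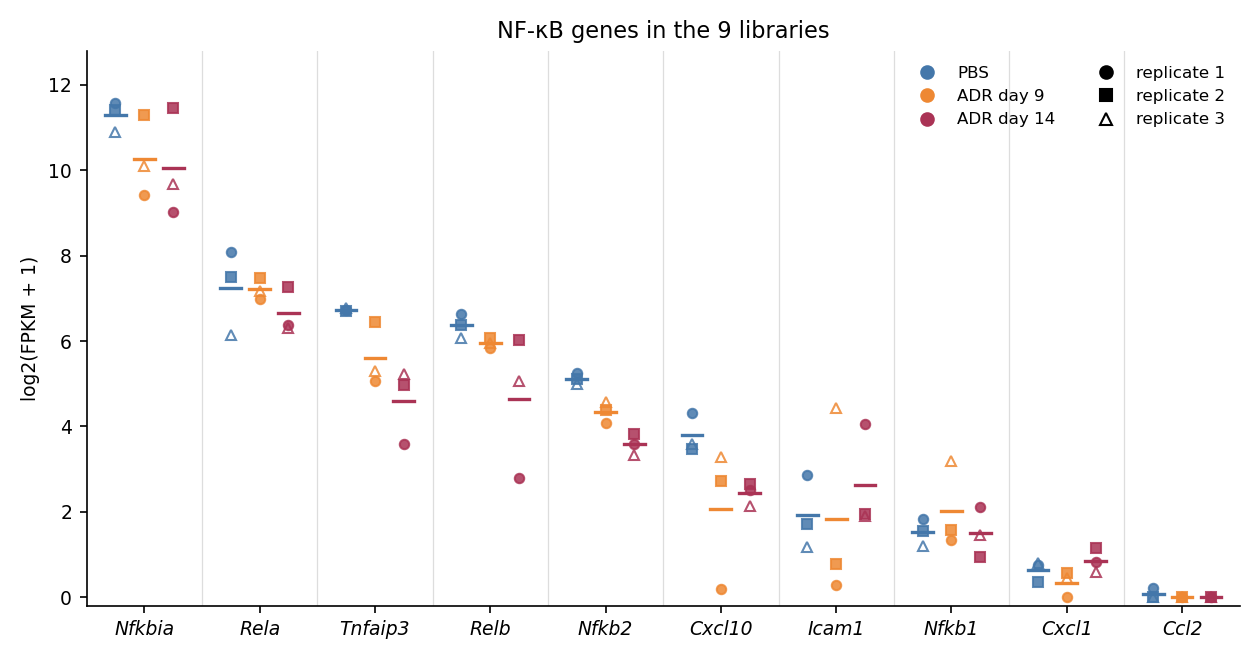
Levels of the 10 NF-κB genes in the 9 libraries. The vertical axis is log2(FPKM + 1), colours mark the groups, symbols mark the replicate numbers and horizontal bars mark group means of the log2 values. Nfkb2 lies at 30.9 to 36.9 FPKM with PBS, at 16.0 to 22.8 on day 9 and at 9.04 to 13.2 on day 14 without overlap, although the step between the days did not pass the test, whereas Icam1 and Nfkb1 are highest in day 9 replicate 3 and day 14 replicate 1.

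Of the factor genes, Nfkb2 differed most clearly between the groups. It encodes the precursor that is processed to a partner of Relb. Its values were 36.9, 33.4 and 30.9 FPKM with PBS, 16.0, 19.8 and 22.8 by day 9, and 11.0, 13.2 and 9.04 by day 14. The highest day 9 library lay below the lowest PBS library, and the highest day 14 library lay below the lowest of day 9. The group means were 33.7 ± 2.98, 19.5 ± 3.40 and 11.1 ± 2.10 FPKM (SD, n = 3), a mean 3.04-fold lower on day 14 than with PBS. Log2 changes are on the scale of log2(FPKM + 1), which understates the change of low genes, and have the change of the median gene subtracted (0.04 for day 9 and −0.15 for day 14, each against PBS, and −0.22 from day 9 to day 14). On that scale Nfkb2 fell by 1.39 on day 14 against PBS (SE 0.23, limma adjusted p = 0.00994). The p-values here and below test the change before that subtraction, which was −1.53 in this case. Passing the test means a limma adjusted p under 0.05 here and below.

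Nfkb2 did not pass on day 9 against PBS, with a log2 change of −0.80 (SE 0.23, limma adjusted p = 0.9999, unadjusted p = 0.00893). Nor did it pass from day 9 to day 14, with −0.55 (SE 0.23, limma adjusted p = 0.0543), and this value turned to 0.070 once a trend on the length and GC content of transcripts was removed. In day 14 replicate 1, which carried markers of other kidney cells, Nfkb2 lay between the other day 14 libraries. Without that library and day 9 replicate 3 the day 14 change was −1.37 (limma adjusted p = 0.0137). The call was lost without PBS replicate 2 (log2 change −1.40, limma adjusted p = 0.0664), where no gene of the 9788 passed. It was also lost with a term for the Y-linked transcripts, at −1.36 (limma adjusted p = 0.0831), where again no gene passed. With the length and GC trend removed, the day 14 change against PBS was −0.90 (limma adjusted p = 0.0475).

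A stretch of the Nfkb2 promoter is shown because the gene passed the test and the window holds 4 matches to the κB consensus, both strands counted. The window runs from 250 bases before a RefSeq start site to 50 bases after it (GRCm38.p6, chr19:46304487-46304786, plus strand). Capitals mark every match, on either strand, to the κB consensus or to the shorter pattern GGNNNTTCC, with overlapping matches merged.
Nfkb2: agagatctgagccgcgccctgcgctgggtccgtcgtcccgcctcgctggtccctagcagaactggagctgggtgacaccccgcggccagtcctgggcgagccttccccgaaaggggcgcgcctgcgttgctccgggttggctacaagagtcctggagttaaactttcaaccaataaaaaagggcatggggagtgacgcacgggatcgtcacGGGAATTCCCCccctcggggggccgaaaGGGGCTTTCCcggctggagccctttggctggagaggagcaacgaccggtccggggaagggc
The first block starts 39 bases before the start site and holds matches to the consensus on both strands. The second starts 11 bases before it. RefSeq lists 3 windows for Nfkb2, and each holds at least 1 consensus match.

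Relb encodes the Rel protein that pairs with processed Nfkb2. Its values were 98.6, 82.0 and 66.5 FPKM with PBS, 56.1, 66.2 and 61.1 by day 9, and 5.90, 64.6 and 32.7 by day 14. Every library after ADR lay below every PBS library, narrowly so on day 9, and the day 14 libraries differed from each other by up to 10.9 times. The log2 change on day 14 against PBS was −1.58 (SE 0.68, limma adjusted p = 0.113). It was −0.44 on day 9 (SE 0.68, limma adjusted p = 0.9999) and −1.11 on day 14 against day 9 (SE 0.68, limma adjusted p = 0.202). Relb therefore passed in none of the 3 comparisons. Single libraries moved the day 14 value in both directions. Without day 14 replicate 1, the library with the lowest depth and with markers of other kidney cells, it was −0.64, and without day 14 replicate 2 it was −2.30 and passed (limma adjusted p = 0.0364).

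Rela encodes the main activating subunit of the classical dimer. It was at 269, 180 and 69.5 FPKM with PBS, at 127, 177 and 144 on day 9, and at 81.9, 154 and 78.1 on day 14. The PBS libraries alone differed by 3.87 times, and their range held all 6 ADR values. The log2 changes were −0.06 on day 9 and −0.44 on day 14 against PBS (SE 0.48, limma adjusted p = 0.9999 and 0.417), and −0.35 on day 14 against day 9 (limma adjusted p = 0.436). The Rela window in RefSeq, chr19:5637291-5637590 on the plus strand of GRCm38.p6, held neither motif.

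Nfkb1 encodes the precursor of the DNA-binding partner of Rela. It was low in most libraries, at 2.54, 1.93 and 1.29 FPKM with PBS, 1.52, 1.96 and 8.06 by day 9, and 3.31, 0.927 and 1.73 by day 14. The highest values were in day 9 replicate 3 and day 14 replicate 1, the libraries with endothelial and leukocyte markers. The log2 changes were 0.47 on day 9, 0.12 on day 14 and −0.31 between them (SE 0.51, limma adjusted p = 0.9999, 0.979 and 0.496). Without these 2 libraries the day 9 and day 14 values against PBS were −0.09 and −0.16.

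The feedback genes were abundant with PBS and spread widely after ADR. Nfkbia encodes IκBα, the inhibitor that holds Rela dimers in the cytoplasm and is itself induced by them. It was at 3033, 2744 and 1892 FPKM with PBS, at 682, 2499 and 1089 on day 9, and at 520.2, 2816 and 814 on day 14. Replicate 2 of both ADR groups lay within the PBS range, and the other 4 ADR libraries lay below it. The log2 change was −1.06 on day 9 (SE 0.67, limma adjusted p = 0.9999) and −1.09 on day 14 (SE 0.67, limma adjusted p = 0.222). Between the days it was 0.00 (SE 0.67, limma adjusted p = 0.852). The means were 1.80-fold and 1.85-fold lower than with PBS, within the spread of the ADR libraries.
The Nfkbia promoter is shown because the gene is the most abundant of the set and a textbook target of the factors (GRCm38.p6, chr12:55492598-55492897, minus strand, capitals as for Nfkb2).
Nfkbia: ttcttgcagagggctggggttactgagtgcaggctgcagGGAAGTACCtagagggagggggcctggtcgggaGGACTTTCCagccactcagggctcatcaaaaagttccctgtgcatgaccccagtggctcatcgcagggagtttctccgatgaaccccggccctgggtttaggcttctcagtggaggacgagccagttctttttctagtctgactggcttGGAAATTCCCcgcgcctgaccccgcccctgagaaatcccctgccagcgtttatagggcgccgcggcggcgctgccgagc
It held 1 match to the κB consensus, 29 bases before the start site, and 4 matches to GGNNNTTCC.

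Tnfaip3 encodes a ubiquitin-editing enzyme that shuts off signalling to the IκB kinases. It was at 104, 104 and 109 FPKM with PBS, at 32.5, 86.7 and 38.3 on day 9, and at 10.9, 30.5 and 36.6 on day 14. The PBS libraries were within 1.04 times of each other, and all 6 ADR libraries lay below them. Day 9 replicate 2 was the closest to PBS. The means were 106 ± 2.55, 52.5 ± 29.7 and 26.0 ± 13.4 FPKM (SD, n = 3), 4.06-fold lower on day 14 than with PBS. On the log2 scale Tnfaip3 fell by 1.99 on day 14 against PBS (SE 0.48, limma adjusted p = 0.0231).

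On day 9 Tnfaip3 did not pass, with −1.17 (SE 0.48, limma adjusted p = 0.9999, unadjusted p = 0.0448). From day 9 to day 14 the change was −0.79 (SE 0.48, limma adjusted p = 0.174), and the libraries overlapped. The day 14 call held in 6 of the 9 fits that left out 1 library. It was lost without PBS replicate 1, 2 or 3, with limma adjusted p = 0.0516, 0.0947 and 0.0745 and log2 changes of −2.02, −2.02 and −1.95. Without both libraries rich in markers of other renal cells it was −1.46 (limma adjusted p = 0.0274). It was also lost with no filter on low values (−2.13, limma adjusted p = 0.0545), with a term for the Y-linked transcripts (−2.03, limma adjusted p = 0.113) and once the trend on length and GC content was taken out (−1.74, limma adjusted p = 0.0692). The longest annotated transcript of Tnfaip3 is 6199 bases and that of Nfkb2 3846 bases, against a median of 3178 bases over the genes tested. Across genes, which are not independent replicates, Spearman's rho of the day 14 change against PBS with transcript length was −0.33.
The Tnfaip3 promoter is shown as that of the second gene that passed (GRCm38.p6, chr10:19015361-19015660, minus strand, capitals as above).
Tnfaip3: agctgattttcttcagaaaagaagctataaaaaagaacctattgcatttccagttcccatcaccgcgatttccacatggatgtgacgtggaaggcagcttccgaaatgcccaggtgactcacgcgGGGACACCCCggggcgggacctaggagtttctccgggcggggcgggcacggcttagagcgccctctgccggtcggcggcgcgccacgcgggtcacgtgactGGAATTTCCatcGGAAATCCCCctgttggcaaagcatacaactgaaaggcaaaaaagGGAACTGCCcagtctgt
It held 3 matches to the κB consensus, 2 of them the opposite strands of 1 block that starts 125 bases before the start site, and the third 12 bases before it. The other Tnfaip3 window in the table, chr10:19011914-19012213, held no consensus match and 1 match to GGNNNTTCC.

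Of the chemokine genes, Cxcl10 stood in the middle of the set with PBS, and Cxcl1 and Ccl2 at its low end. Cxcl10 encodes an interferon-induced and NF-κB-induced chemokine that attracts T cells. It was at 19.0, 10.1 and 11.1 FPKM with PBS, at 0.148, 5.55 and 8.73 on day 9, and at 4.71, 5.23 and 3.41 on day 14. All 6 ADR libraries lay below all PBS libraries, and day 9 replicate 1 was the lowest. The log2 change was −1.77 on day 9 (SE 0.70, limma adjusted p = 0.9999, unadjusted p = 0.0370) and −1.22 on day 14 (SE 0.70, limma adjusted p = 0.205). From day 9 to day 14 it was 0.58 (SE 0.70, limma adjusted p = 0.748). Cxcl10 passed in none of these. Day 9 replicate 1 decided part of this. Without it the day 9 value was −0.81, the change from day 9 to day 14 was −0.33, and the day 14 value against PBS was still −1.22 and passed (limma adjusted p = 0.0422).
The Cxcl10 promoter is shown beside those of the feedback genes because, like those of Tnfaip3, all its ADR libraries lay below all PBS libraries (GRCm38.p6, chr5:92348840-92349139, minus strand, capitals as above).
Cxcl10: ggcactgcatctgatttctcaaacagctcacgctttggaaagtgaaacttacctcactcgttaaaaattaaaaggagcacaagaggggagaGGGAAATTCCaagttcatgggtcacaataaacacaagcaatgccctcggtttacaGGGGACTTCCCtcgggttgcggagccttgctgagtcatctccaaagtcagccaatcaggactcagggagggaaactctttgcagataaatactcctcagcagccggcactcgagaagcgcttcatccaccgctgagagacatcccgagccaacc
It held a κB consensus match 159 bases before the start site and a group of 3 overlapping ones that begins 104 bases before it.

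Cxcl1, a chemokine for neutrophils, was at 0.689, 0.280 and 0.734 FPKM with PBS, at 0, 0.473 and 0.375 on day 9, and at 0.781, 1.22 and 0.493 on day 14. Every day 14 value lay above every day 9 value, the PBS values overlapped with both, and only day 14 replicate 2 exceeded 1 FPKM. Ccl2, the main chemokine for monocytes, was listed at 0.160 FPKM in PBS replicate 1 and at 0 in the other 8 libraries. No fold is given for it, and neither gene was tested. Both chemokines were therefore low beside the genes tested. In any library, the 2 with leukocyte markers included, Cxcl1 lay above at most 16.2% of them and Ccl2 above at most 0.46%. In the table of RefSeq windows used here, 7 of the 10 genes were matched, and promoters of Nfkb1, Relb and Ccl2 were not analysed here.

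Icam1 encodes the adhesion molecule that leukocytes bind through their integrins, and it is made by activated endothelium as well as by leukocytes. It was at 6.26, 2.30 and 1.25 FPKM with PBS, at 0.209, 0.704 and 20.6 on day 9, and at 15.5, 2.85 and 2.75 on day 14. The groups overlapped, and the highest values stood in day 9 replicate 3 and day 14 replicate 1. The log2 changes were −0.13 on day 9, 0.86 on day 14 and 1.02 between them (SE 1.08, limma adjusted p = 0.9999, 0.669 and 0.632). Without these 2 libraries they were −1.41, 0.18 and 1.59, and none passed (limma adjusted p = 0.854, 0.992 and 0.105).
The Icam1 promoter is shown for contrast, since it held GGNNNTTCC 3 times, both strands counted, and the κB consensus not at all (GRCm38.p6, chr9:21015690-21015989, plus strand, capitals as above).
Icam1: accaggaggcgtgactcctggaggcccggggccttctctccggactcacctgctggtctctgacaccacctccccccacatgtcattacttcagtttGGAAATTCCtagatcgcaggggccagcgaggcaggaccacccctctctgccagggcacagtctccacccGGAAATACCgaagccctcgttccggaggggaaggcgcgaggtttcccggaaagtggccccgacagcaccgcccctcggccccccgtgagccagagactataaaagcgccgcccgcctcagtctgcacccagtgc
Both blocks lie upstream of the start site, the first beginning 153 bases before it and the second 84 bases before it.

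The 2 libraries in which Icam1 and Nfkb1 were highest also held the markers of endothelium and leukocytes. The summed level of 15 endothelial markers was 446 to 552 FPKM with PBS, 638, 703 and 3684 by day 9, and 968, 435 and 112 by day 14. Most of the PBS sum was Cldn5, a tight junction gene, at 439 to 548 FPKM. Cldn5 also made up most of the sum in day 9 replicates 1 and 2 (609 and 696 FPKM). The same held in day 14 replicates 2 and 3 (434 and 93.5 FPKM). The sum in these libraries therefore mainly follows this 1 gene. The more restricted endothelial genes Emcn and Egfl7 were at most 0.527 and 7.70 FPKM with PBS. They were at 424 and 1444 FPKM in day 9 replicate 3 and at 244 and 274 in day 14 replicate 1. Cdh5, which defines endothelial junctions, was at 21.6 and 3.58 FPKM in these libraries, at 0.164 or less in the others and at 0 in day 14 replicate 2.
The summed level of 21 leukocyte markers was 77.9, 25.3 and 6.24 FPKM with PBS, 8.48, 40.9 and 756 by day 9, and 1075, 13.0 and 37.0 by day 14. Tyrobp, a myeloid signalling adaptor, made up most of it in the 2 libraries, at 561 and 824 FPKM. Ptprc (CD45) was at 7.88 and 7.05 FPKM there and at 0.0912 or less elsewhere. Among the PBS libraries, replicate 1 had the highest leukocyte sum and also the highest Icam1 and Nfkb1. The order did not hold throughout. Day 9 replicate 2 had a higher leukocyte sum than PBS replicates 2 and 3. Its Icam1 was lower than theirs (0.704 against 2.30 and 1.25 FPKM), and its Nfkb1 was higher (1.96 against 1.93 and 1.29 FPKM). The part of these cells in the levels of Icam1 and Nfkb1 was not tested. By contrast, Nfkb2 and Tnfaip3 in these libraries were at 22.8 and 38.3 FPKM on day 9 and at 11.0 and 10.9 on day 14, below every PBS library.

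**Figure D2:**
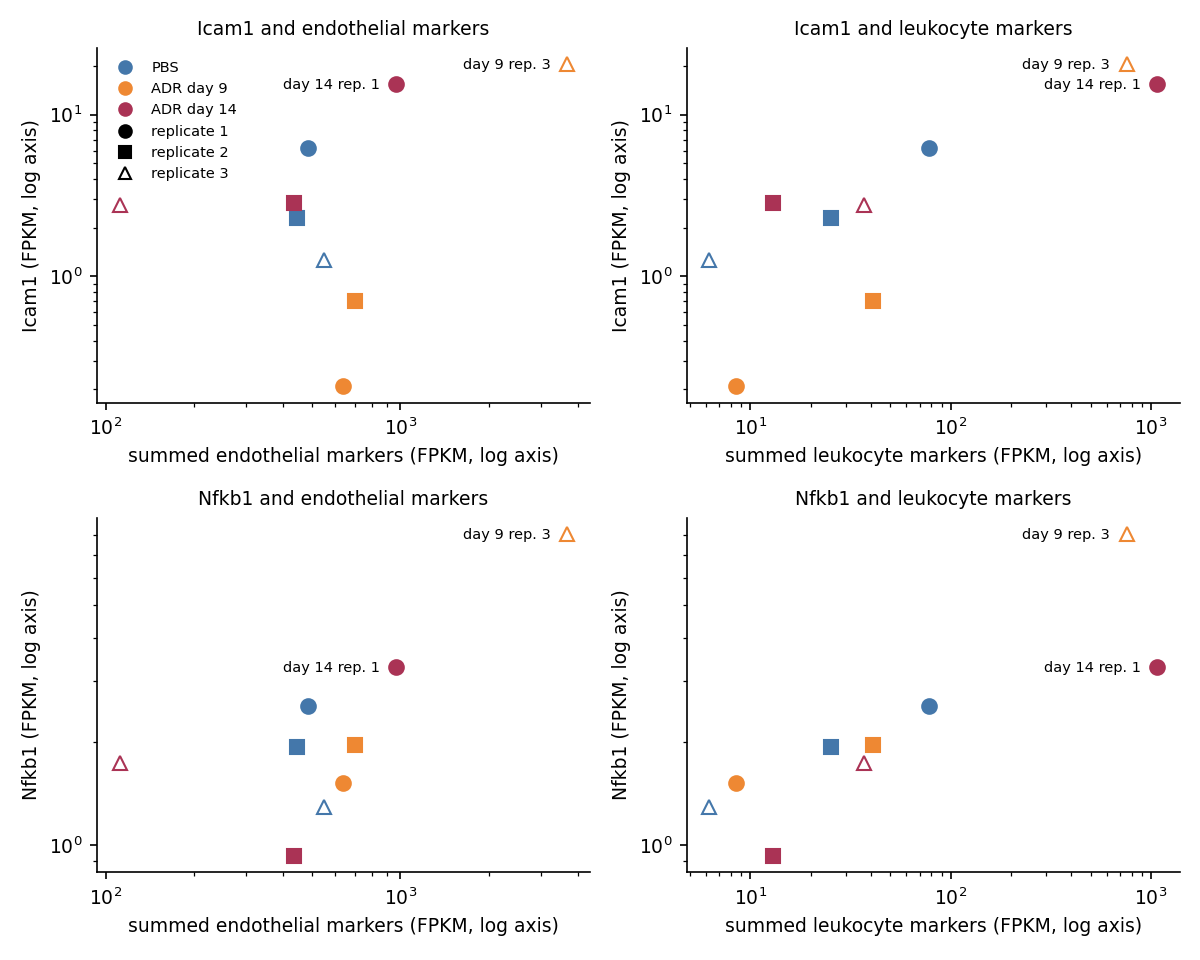
Icam1 (upper panels) and Nfkb1 (lower panels) against the summed level of endothelial markers (left) and leukocyte markers (right), 1 point per library, with FPKM on log axes. Day 9 replicate 3 and day 14 replicate 1 lie at the upper right for both genes, with Icam1 at 20.6 and 15.5 FPKM. In all other libraries, most of the endothelial sum was Cldn5.

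Counted together, on day 9 against PBS 0 of the 8 genes tested passed (limma), beside 0% of the 9788 genes. At an unadjusted p under 0.05, 3 of 8 were called (Nfkb2, Cxcl10 and Tnfaip3), beside 3.11% of all genes in either direction and 1.21% lower. Nfkb2, Relb, Tnfaip3 and Cxcl10, 4 of 8, had all 3 day 9 libraries below all PBS libraries, beside 6.63% of all genes. The median log2 change of the 8 was −0.62, and 7 of 8 lay below the median gene. Of all genes tested, 5.85% lay below that median. The smallest limma adjusted p of any gene in this comparison was 0.9999.

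By day 14, 2 of 8 passed against PBS and both were lower, beside 17.1% of all genes in either direction and 10.7% lower. The same 4 genes as on day 9 had all 3 libraries below all PBS libraries, beside 23.8% of all genes. The median log2 change was −1.15, 6 of 8 lay below the median gene, and 7.98% of all genes lay below that median. The comparisons of day 9 and day 14 with PBS use the same 3 PBS libraries, so a low or high PBS value moves both. Between day 9 and day 14, 0 of 8 passed (limma), beside 15.7% of all genes. At an unadjusted p under 0.05, 1 of 8 was called there (Nfkb2), beside 34.4%. Nfkb2 was also the only one of the 8 with all day 14 libraries below all day 9 libraries, beside 24.6% of all genes. The median of the 8 was −0.33, and 34.4% of all genes lay below it. The genes were chosen with earlier results of these data known, and these counts are a description of them.

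**Figure D3:**
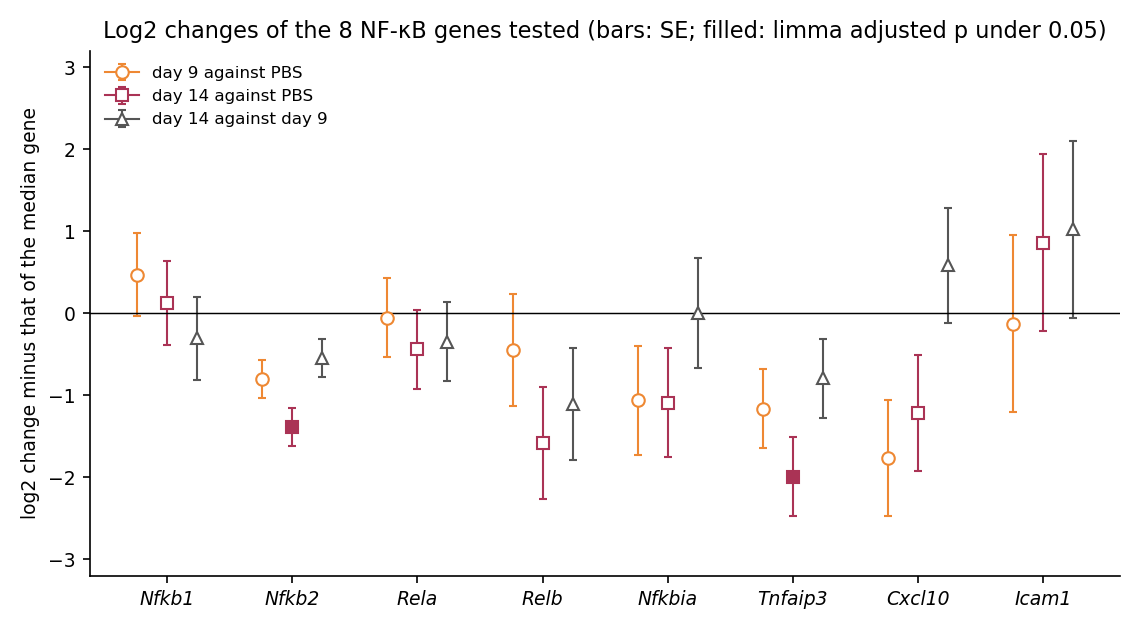
Log2 change of each of the 8 NF-κB genes tested, minus that of the median gene, in the 3 comparisons. Error bars are standard errors from limma and filled symbols have an adjusted p under 0.05. Filled are Nfkb2 (−1.39) and Tnfaip3 (−1.99) on day 14 against PBS.

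Ratios within a library do not depend on its scaling. Nfkb2 over Nfkb1 was 14.5, 17.3 and 23.98 with PBS, 10.6, 10.1 and 2.83 by day 9, and 3.34, 14.3 and 5.21 by day 14. All 6 ADR values lay below all PBS values, day 14 replicate 2 narrowly. The lowest, 2.83 and 3.34, were in day 9 replicate 3 and day 14 replicate 1, which carried markers of other kidney cells and had the highest Nfkb1. Tnfaip3 over Rela was 0.388, 0.578 and 1.56 with PBS, 0.257, 0.490 and 0.267 by day 9, and 0.134, 0.198 and 0.468 by day 14, and the groups overlapped. Nfkb2 over Relb was 0.374, 0.408 and 0.465 with PBS and 0.285, 0.299 and 0.373 on day 9. On day 14 it was 0.205 and 0.276 in replicates 2 and 3 and 1.87 in replicate 1, where Relb was lowest. Nfkbia over Rela, the inhibitor over its main partner, was 11.3 to 27.2 with PBS, 5.39 to 14.1 on day 9 and 6.35 to 18.3 on day 14, with overlap. Each ratio shows unequal levels of its 2 genes and does not tell which of them differed.

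Across the 9 libraries, pairs of these genes can be described by Pearson's r of log2(FPKM + 1), given without a test because the libraries share groups, depth and admixed markers. Tnfaip3 ran closest to Relb (0.83), Nfkb2 (0.82) and Nfkbia (0.77), and Relb to Nfkbia (0.76). Icam1 ran with Nfkb1 (0.80) and against Relb and Tnfaip3 (−0.43 each). Of all genes tested, Nfkb2 was most like Bsdc1 and Plcd3 (r = 0.98 and 0.97), and 52 genes exceeded 0.9. Tnfaip3 was most like Cyp1b1 and Bcl2l13 (0.98 and 0.98, with 131 genes over 0.9), and Relb most like Morf4l2 and Fzd5 (0.98 and 0.98, with 211). Rela was most like Cdk8 and Taf4b (0.94 and 0.94, with 7 genes over 0.9). Nfkbia was most like Ang4, which has near-identical relatives and is uncertain, and Gm5077 (0.97 and 0.96, with 21). Cxcl10 was most like Cish and Rnase4 (0.91 and 0.90, with 2). Nfkb1 was most like Atp9a and Cd97 (0.99 and 0.97, with 105), and Icam1 most like S100a4 and Plaur (0.98 and 0.94, with 28).

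The promoter windows can be set beside all windows of the same length in RefSeq. A κB consensus match stood in some window of 5 of the 7 genes with windows (Nfkb2, Nfkbia, Tnfaip3, Cxcl10 and Cxcl1) and GGNNNTTCC in 6, Icam1 added. Counted the same way per gene, 12.4% and 25.5% of the 7302 genes tested that have windows held them. By window, 7 and 9 of the 10 windows of these genes did, some of them overlapping, beside 8.46% and 18.5% of all 32851 windows. The 2 motifs overlap, and a match is a description of letters, not a site. Among the 5 genes with the consensus, Nfkb2 and Tnfaip3 passed on day 14 against PBS, Nfkbia and Cxcl10 did not, and Cxcl1 was not tested.

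Other genes of the pathway were taken from 8 fixed lists with 97 symbols, of which 96 were in the table and 59 were tested. On day 9 against PBS 0 of 59 passed (limma), 4 of 59 had an unadjusted p under 0.05 (beside 3.11% of all genes), and the median log2 change of the 59 was −0.06. In the comparison of day 14 with PBS, 7 of 59 passed, 1 higher and 6 lower. That is 11.9%, beside 17.1% of all genes, with a median of −0.27. Between day 9 and day 14, 6 of 59 passed, 2 higher and 4 lower, which is 10.2% beside 15.7% of all genes, with a median of −0.05. Both shares were below those of all genes.

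Ligands were scarce, with 2 of 10 tested. Tnf, Il1a and Il1b were not among them, and Il1b was at 41.1 FPKM in day 9 replicate 3 and at most 0.686 elsewhere. Of 12 receptors 6 were tested. On day 14, 1 of the 6 passed against PBS, beside 17.1% of all genes, and the same 1 against day 9, beside 15.7%. Ltbr, the lymphotoxin β receptor at the head of the branch that leads to Nfkb2 and Relb, was at 22.02, 33.4 and 35.6 FPKM with PBS, at 19.7, 26.1 and 67.3 on day 9, and at 6.86, 5.09 and 2.53 on day 14. Every day 14 library lay below every other library. Ltbr fell by 2.33 on day 14 against PBS (SE 0.48, limma adjusted p = 0.0155) and by 2.39 against day 9 (SE 0.48, limma adjusted p = 0.0141). Tnfrsf12a, the receptor of the cytokine TWEAK, was the most abundant receptor, at 194, 110 and 139 FPKM with PBS. It was at 41.9, 108 and 40.9 FPKM on day 9 and at 7.32, 88.6 and 93.9 on day 14, and it did not pass (log2 change on day 14 against PBS −1.66, SE 0.87, limma adjusted p = 0.179).

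Among kinases, 10 of 10 were tested. Map3k14, the kinase that triggers processing of Nfkb2, was at 6.06, 5.32 and 3.70 FPKM with PBS, at 0.669, 3.70 and 1.74 on day 9, and at 0.110, 0.705 and 0.277 on day 14. It fell by 2.0 on day 14 against PBS (SE 0.38, limma adjusted p = 0.0128). Chuk and Tbk1, the most abundant kinases, did not pass, with 0.09 and −0.52 on day 14 against PBS (limma adjusted p = 0.896 and 0.0933). Tab1, a partner of the kinase upstream of the IκB kinases, was lower on day 14 than on day 9 by the test, with −1.05 (SE 0.30, limma adjusted p = 0.0267).

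Of 16 adaptors and ubiquitin ligases 14 were tested. Ripk1, the scaffold kinase at the tumour necrosis factor receptor, fell by 1.04 on day 14 against PBS (SE 0.35, limma adjusted p = 0.0485). Rbck1 and Rnf31 are subunits of the ligase that builds linear ubiquitin chains. Rbck1 fell by 0.64 on day 14 against PBS (SE 0.21, limma adjusted p = 0.0365) and by 0.80 against day 9 (SE 0.21, limma adjusted p = 0.0188). Rnf31 fell by 0.89 against day 9 (SE 0.31, limma adjusted p = 0.0451). Myd88, the adaptor of Toll-like receptors and the most abundant of the list, did not pass, with −0.32 on day 14 against PBS (limma adjusted p = 0.529).

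Of the other feedback proteins 8 were tested and 2 passed on day 14 against PBS, both lower. That stands beside 17.1% of all genes in either direction and 10.7% lower. Zc3h12a, an RNase that degrades inflammatory transcripts, was at 12.5, 11.9 and 15.6 FPKM with PBS, at 2.34, 8.50 and 6.25 on day 9, and at 1.01, 3.24 and 3.06 on day 14. It fell by 1.98 (SE 0.44, limma adjusted p = 0.0189). Tnip1, a partner of the Tnfaip3 protein, fell by 0.82 (SE 0.22, limma adjusted p = 0.0242). Tnfaip3 was also lower on day 14 than with PBS by the test, while Nfkbia, Nfkbib and Nfkbie did not pass (limma adjusted p = 0.222, 0.195 and 0.115). None of the 6 other Rel and IκB genes and none of the 4 other chemokines tested passed in any comparison (limma). At an unadjusted p under 0.05, the former had 1 gene on day 9 and 1 on day 14 against PBS (Nfkbie both times), and the latter 1 on day 14 against PBS (Cxcl12), beside 3.11% of all genes on day 9 and 34.2% on day 14. Of the 9 other target genes tested, Ninj1, a membrane protein gene, rose by 1.05 on day 14 against PBS (SE 0.25, limma adjusted p = 0.0407) and by 1.09 against day 9 (limma adjusted p = 0.0481). Bcl2l1, which encodes a survival protein, rose by 2.72 on day 14 against day 9 (SE 0.66, limma adjusted p = 0.0370).

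**Figure D4:**
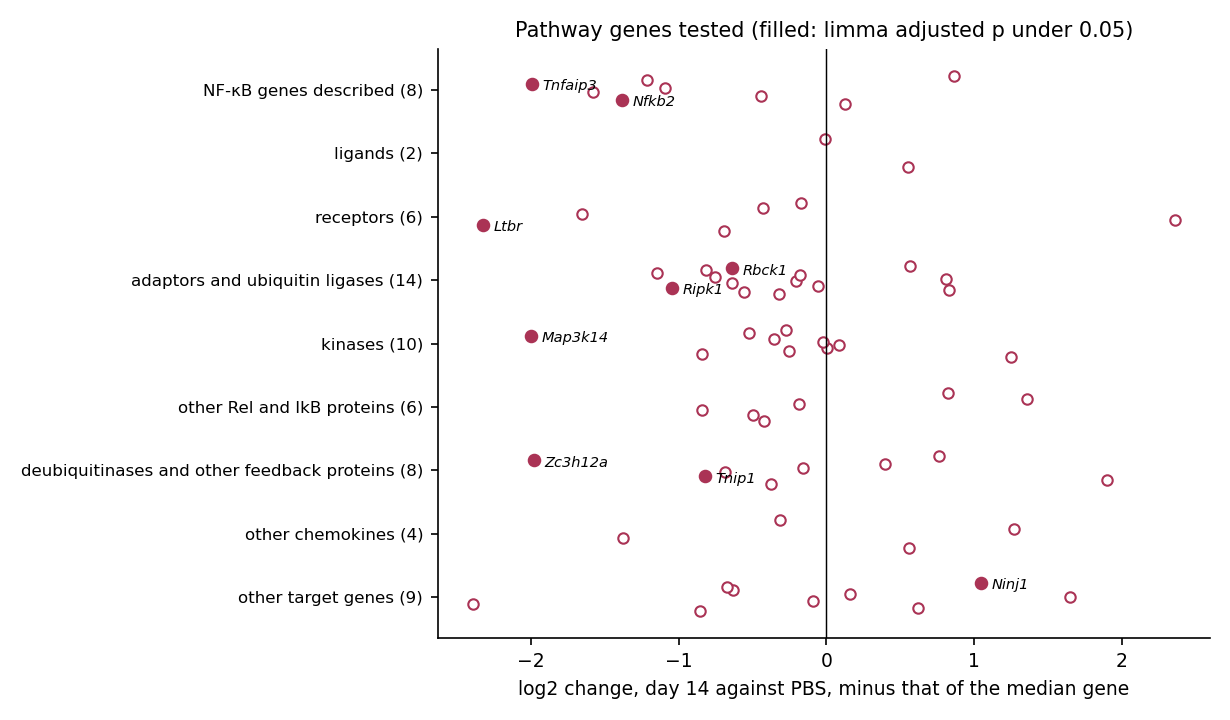
Log2 change on day 14 against PBS, minus that of the median gene, for the 8 NF-κB genes tested and for each list of other pathway genes, 1 point per gene. Filled points have a limma adjusted p under 0.05, and the number of genes tested stands in brackets. Filled points lie on the lower side except Ninj1 (1.05).

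These pathway calls differed in how far they rested on single libraries. Ltbr against day 9 passed in 9 of 9 fits without 1 library, Map3k14 against PBS in 8 of 9 (not without PBS replicate 2) and Ltbr and Zc3h12a against PBS in 7 of 9 (not without PBS replicate 2 or 3). Ripk1 and Ninj1 against PBS, and Rnf31 and Ninj1 against day 9, passed in only 1 of 9. Against PBS, Tnip1 passed in 5 of 9 and Rbck1 in 3 of 9, and these calls, like those of Ripk1 and Ninj1, were lost without each PBS library. Against day 9, Rbck1 passed in 7 of 9 (not without day 9 replicate 1 or 3). Tab1 and Bcl2l1 against day 9 passed in 4 of 9, and not without PBS replicate 2 or any day 9 library. Without both libraries rich in markers of other renal cells, Ltbr, Map3k14, Zc3h12a, Tnip1 and Rbck1 passed on day 14 against PBS, and Ripk1 and Ninj1 did not (limma adjusted p = 0.0780 and 0.0701). In that comparison none of the 59 passed with the Y-linked term (limma), and after removal of the trend on length and GC content only Ltbr did (limma adjusted p = 0.0286).

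**Figure D5:**
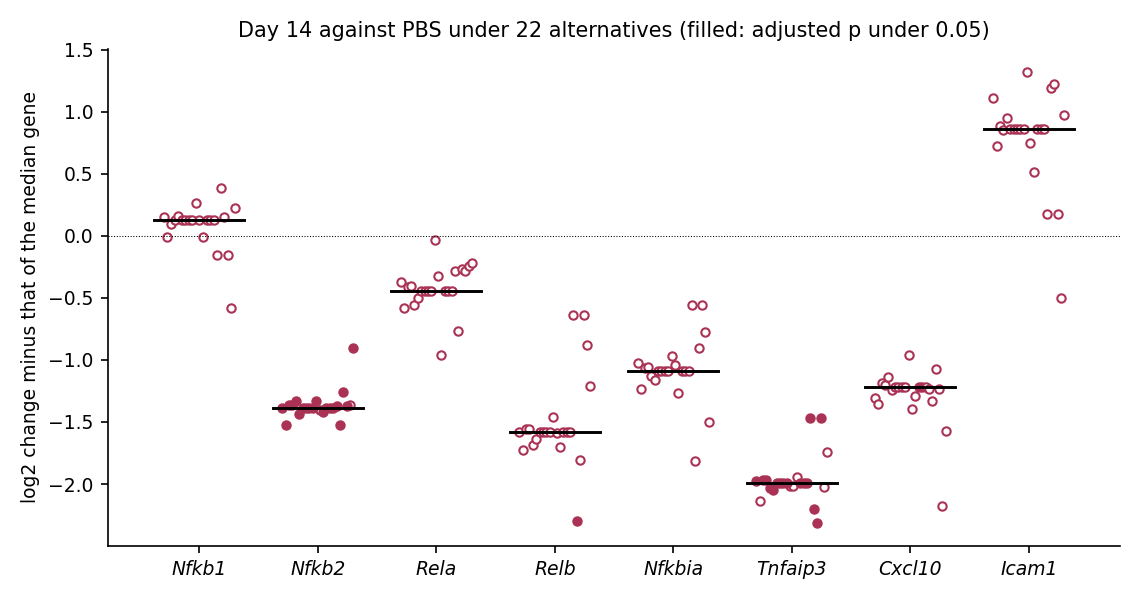
Log2 change on day 14 against PBS, minus that of the median gene, for the 8 NF-κB genes in the fit reported (bars) and under each alternative processing or omitted library (points, filled where the adjusted p is under 0.05). Nfkb2 stays between −1.53 and −0.90 and Tnfaip3 between −2.31 and −1.46, while Nfkb1 and Icam1 have values on both sides of 0.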

How the data were processed

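RNA was measured in 9 libraries of isolated podocytes, 3 per group. The authors deposited 1 table of FPKM values with a column for each library. Per the submitters' processing notes, the tools were Bowtie 0.12.7 and Cufflinks and the genome build was mm9, and no step is assigned to a tool. Not given in the sources used here are the annotation, the Cufflinks version, and how strand and reads with several map positions were handled. FPKM are not counts, so no count test was run, and no counting interval can be given. All per-sample columns were used (0 left out). For a symbol on more than 1 row (260 of 23309), the row of highest mean represents it. None of the 10 genes was among these.

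limma 3.58.1 (R 4.3.3) served as the test, on log2(FPKM + 1), where the 1 is the pseudocount, and a trend of the variance with the level was fitted. It took in genes that reached 1 FPKM in 3 or more libraries. All 9 libraries were in the fit, with group as the only term. Tests were two-sided with Benjamini-Hochberg adjustment over the 9788 genes of each of the 3 comparisons. They used the values as deposited, and only the log2 changes printed are relative to the median gene. The fit was tested on simulated data with independent noise for each gene. These data held no admixed markers, depth differences or length trend, so that run cannot show how the fit behaves under them. Relative depth is the most frequent ratio of the PBS replicate 2 value to the library's value, over genes above 0 and under 0.3 FPKM in both. PBS replicate 2 is set to 1.

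The members and the lists were chosen with earlier results of these data known. Named besides the members were the 2 most abundant genes of each list, up to 3 per comparison with the smallest p among those that passed, the 2 genes most like each member, and marker genes, of which the text prints fewer. Il1a, Tnf, Cdh5, Ptprc and Cldn5 were chosen after their values were seen. Fam105b is the older symbol of Otulin, which is why 96 of 97 symbols were found. Promoter sequences are those of RefSeq on GRCm38.p6, matched by symbol for 7 of 10 genes. Transcript lengths were matched for 99.4% of the genes tested.

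Alternatives were a pseudocount of 0.1, no filter or a filter of 5 FPKM, 3 scalings (median-of-ratios, quantile, common total), no variance trend, only the groups compared, duplicate symbols summed, the replicate number as a block, each library left out in turn, both libraries rich in markers of other renal cells left out, and a term for Y-linked transcripts. Removing a trend on length and GC content of transcripts was chosen after seeing the data. The full strain name is not reported here.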

Additional observations from a re-analysis of the deposited data

Results flagged for a closer look

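The change from PBS differed between day 14 and day 9, by limma's test of the difference between the days, for 6 of the pathway genes, in log2 relative to the median gene. It was 2.72 for Bcl2l1 (3.13, 3.18 and 4.82 FPKM on day 9, and 21.3, 9.38 and 77.6 on day 14) and 1.09 for Ninj1. It was −2.39 for Ltbr, −0.80 for Rbck1, −0.89 for Rnf31 and −1.05 for Tab1. The PBS libraries cancel from this difference. Without day 9 replicate 3 and day 14 replicate 1, which carried markers of other kidney cells, Ltbr (−2.17, limma adjusted p = 0.0245) and Rbck1 (−0.74, limma adjusted p = 0.0416) passed, and Bcl2l1 (2.97, limma adjusted p = 0.0729), Ninj1, Rnf31 and Tab1 did not. None of the 8 NF-κB genes tested differed in this way by limma (0 passed, and Nfkb2 had an unadjusted p under 0.05), and Cxcl1 and Ccl2 were not tested.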

How the results depend on the processing

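Every comparison rests on 3 libraries per group, and those with day 14 also on libraries of lower depth. The effect of depth was not tested. On day 9 against PBS, where 0 genes passed (limma) and 304 had an unadjusted p under 0.05, 2 genes passed with no filter, 1 with only the groups compared and 0 to 1 with 1 library left out (Mir3061, without day 14 replicate 2). None of these was an NF-κB gene. On day 14 against PBS, 1670 genes passed, 619 higher and 1051 lower. With no filter it was 997, with only the groups compared 470, with length and GC removed 582, and with the Y-linked term 0 (limma, smallest adjusted p 0.0831, with 2282 at an unadjusted p under 0.05). With 1 library left out it was 0 to 1885. It was 0 without PBS replicate 2 (limma, with 2349 at an unadjusted p under 0.05), 150 without PBS replicate 3 and 1081 without day 9 replicate 2. The split of higher against lower was 859 to 766 with median-of-ratios scaling, 465 to 657 with quantile normalization, 414 to 1679 with a common total and 296 to 286 with length and GC removed. Of the 8 NF-κB genes, 2 passed there, against 1 with no filter, 1 with length and GC removed, 0 with the Y-linked term and 0 to 3 with 1 library left out (1 without PBS replicate 1 or 3, 0 without PBS replicate 2). Of the 59 pathway genes, 7 passed, against 3 with quantile normalization, 3 with only the groups compared, 1 with length and GC removed, 0 with the Y-linked term and 0 to 8 with 1 library left out.

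On day 14 against day 9, 1536 genes passed, 559 higher and 977 lower, against 881 with no filter, 993 with quantile normalization, 262 with only the groups compared, 438 with length and GC removed and 381 to 2124 with 1 library left out. That count was lowest without day 9 replicate 3, and it was 497, 625 and 729 without day 9 replicates 1 and 2 and PBS replicate 2. The splits were 823 to 644, 521 to 472, 393 to 1832 and 276 to 162 for the alternatives in the order above (median-of-ratios, quantile, common total, length and GC). Of the NF-κB genes 0 passed, and 1 (Nfkb2) passed with the filter of 5 FPKM (limma adjusted p = 0.0471) and with the common total (0.0193). Of the pathway genes 6 passed, against 3 with no filter, 3 with quantile normalization, 0 with only the groups compared, 3 without both libraries with foreign markers (day 9 replicate 3 and day 14 replicate 1), 1 with length and GC removed and 1 to 6 with 1 library left out. With the replicate block it was 3. Whether the replicate numbers pair the libraries is not known. The correlations of same-numbered libraries ran from −0.27 to 0.43. They cannot decide this, since libraries with different numbers were not compared. With that block 0, 1301 and 1200 genes, 0, 2 and 0 NF-κB genes and 0, 5 and 3 pathway genes passed for day 9 and for day 14 against PBS and between the days.

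Some changes that had not passed turned sign. For day 9 against PBS, Rela was at 0.12 with quantile normalization, 0.082 with the Y-linked term and −0.63 to 0.38 with 1 library left out. There Icam1 ran from −1.41 (without day 9 replicate 3) to 0.67 (without day 9 replicate 1) and Nfkb1 from −0.090 (without day 9 replicate 3) to 0.83. Nfkb1 was at −0.090 without both libraries with foreign markers and at −0.21 with the Y-linked term, where Relb was at 0.15. For day 14 against PBS, Nfkb1 was at −0.014 with no filter, −0.16 without both libraries with foreign markers, −0.58 with the Y-linked term and −0.16 to 0.39 with 1 library left out, and Icam1 was at −0.51 with the Y-linked term. Between the days, Nfkbia was at −0.19 with no filter, −0.30 with quantile normalization, −0.064 with a common total, −0.43 with length and GC removed and −0.72 to 0.55 with 1 library left out. Nfkb2 was at 0.070 with length and GC removed, and with 1 library left out Cxcl10 ran from −0.33 (without day 9 replicate 1) to 1.14 and Nfkb1 from −0.63 to 0.21 (without day 9 replicate 3). The causes were not tested.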

Other observations

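The most abundant of the other target genes were Gadd45b and Irf1, and neither passed in any comparison (limma). Gadd45b, which encodes a growth arrest protein, was at 841 to 918 FPKM with PBS, at 92.0, 857 and 335 on day 9, and at 59.7, 541 and 105 on day 14. Its day 14 libraries all lay below PBS, and the log2 change there was −2.40 (SE 0.92, limma adjusted p = 0.0877). Irf1, an interferon regulatory factor, was at 356 to 638 FPKM with PBS, at 110, 416 and 341 on day 9, and at 154, 740.01 and 156 on day 14, and its groups overlapped. Both genes were highest in replicate 2 among the libraries of each ADR group. Over all genes tested, the deviations of these 2 libraries from their group means had a correlation of 0.43, the highest of the 9 pairs of libraries with the same number, and the labels do not say what the number stands for.

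Fam105b, the gene of the deubiquitinase that removes linear ubiquitin chains, was at 42.6 and 30.3 FPKM in PBS replicates 1 and 2 and at 1.23 in PBS replicate 3, while all 6 ADR libraries were at 38.6 to 59.4. Il1b (41.1 FPKM) and Tnf (9.28 FPKM), cytokines that switch the pathway on, were highest in day 9 replicate 3 and were at most 0.686 and 0.363 FPKM in all other libraries, day 14 replicate 1 included, where both are listed at 0.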
